A study of Mus musculus with 16 samples.

Results

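The genes described here are 8 ligands and receptors through which cells of the brain keep microglia alive and hold them in their resting identity: Csf1, Il34 and their receptor Csf1r; Tgfb1 and Tgfb2 with the receptor chains Tgfbr1 and Tgfbr2; and Cx3cl1, the ligand of the microglial receptor Cx3cr1. They were chosen by name, as 8 of the 30389 genes in the count tables, and not by a cut on any measured value, although earlier results of these data were known. Their levels were read in the cortex of THY-Tau22 mice, which are heterozygous for a mutated human tau transgene driven by the neuronal promoter Thy1.2, and of their wild-type (WT) littermates, all at 17 months of age. The series holds 16 Drop-seq tables, each described as 1 mouse and made from the neocortex of 1 hemisphere, taken after perfusion with saline and dissociated into single cells. By the labels, 5 THY-Tau22 and 3 WT tables were from females, and 4 of either genotype from males. The replicate number used here only names a mouse within its group.

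The labels leave 2 conflicts that touch comparisons by genotype. Of the 3000 barcodes in the table of THY-Tau22 male replicate 4, 2952 also stood in that of WT male replicate 3, whereas the other pairs among the 120 shared 3 to 12, and 87.0% of the UMIs in the WT table were common to both. The same library thus appears under opposite genotypes. It was counted once for levels, which rest on 15 libraries, and left out of the genotype tests, which rest on 14 (5 THY-Tau22 and 3 WT females, and 3 males of either genotype). The tables held 1041675 to 2237505 UMIs each, and 28530 of 48000 barcodes had 200 to 7000 detected genes and were kept as cells, with a median of 429 to 736.5 UMIs per cell in a library. In the second conflict, THY-Tau22 female replicate 1 and WT male replicate 1 carry the same animal code in their titles, although they shared no more barcodes than other pairs. Both were kept, and 0 of the 8 genes were called in any genotype test without them. Few genes of any kind were called in that setting. Of 35203 pairs of gene and level, males gave 0%, females 0.00568%, both sexes 0% and male minus female 0.00284%. The count of 0 therefore cannot show whether this conflict matters. Titles of THY-Tau22 female replicate 5 and WT female replicate 3 carry MB22 where all others carry MB21, and values without these libraries are given where they matter.

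Csf1 and Il34 are secreted cytokines that bind the same receptor tyrosine kinase, Csf1r, on microglia and macrophages, which die when the receptor is blocked. TGF-beta ligands are made as latent dimers that are held by binding proteins and released by integrins, and they signal when the type II receptor Tgfbr2 recruits and phosphorylates the type I receptor Tgfbr1, which passes the signal to SMAD proteins. In the adult brain this pathway maintains the microglial gene programme. Cx3cl1, or fractalkine, is a chemokine displayed on neuronal membranes and shed by proteases of the ADAM family.

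Cells were clustered without using the 8 genes and named from marker genes, so that the class names are rebuilt and carry the suffix -like. Of the 28530 cells, 8017 (28.1%) were microglia-like, 5590 astrocyte-like, 5471 oligodendrocyte-like, 4190 endothelial-like, 1466 neuron-like, 1323 OPC-like (oligodendrocyte precursors), 1000 mural-like, 380 macrophage-like, 198 fibroblast-like and 142 ependymal-like, and 753 were unnamed. In microglia-like cells the 12 microglia markers summed to between 20801 and 35719 CPM per library and the 8 macrophage markers to between 4.64 and 57.8 CPM. CPM here is the number of UMIs of a gene per 1000000 UMIs summed over all cells of a class in 1 library. The mural-like class is uncertain, since 516 of its 1000 cells held more of the endothelial than of the mural markers when read by markers alone. The macrophage-like class is uncertain too, and was led by Mrc1 and Pf4 but also by Cd74, H2-Ab1 and H2-Aa. At the finer Leiden resolution of 1.0 only 185 cells were macrophage-like. A cluster of 281 cells led by Cd74, H2-Ab1 and H2-Aa was then named T or NK cell-like. Its leading genes also included Lpl, Spp1, Clec7a, Ccl5 and Cst7, so that name is uncertain too. Macrophage-like levels may therefore mix cell types.

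**Figure D1:**
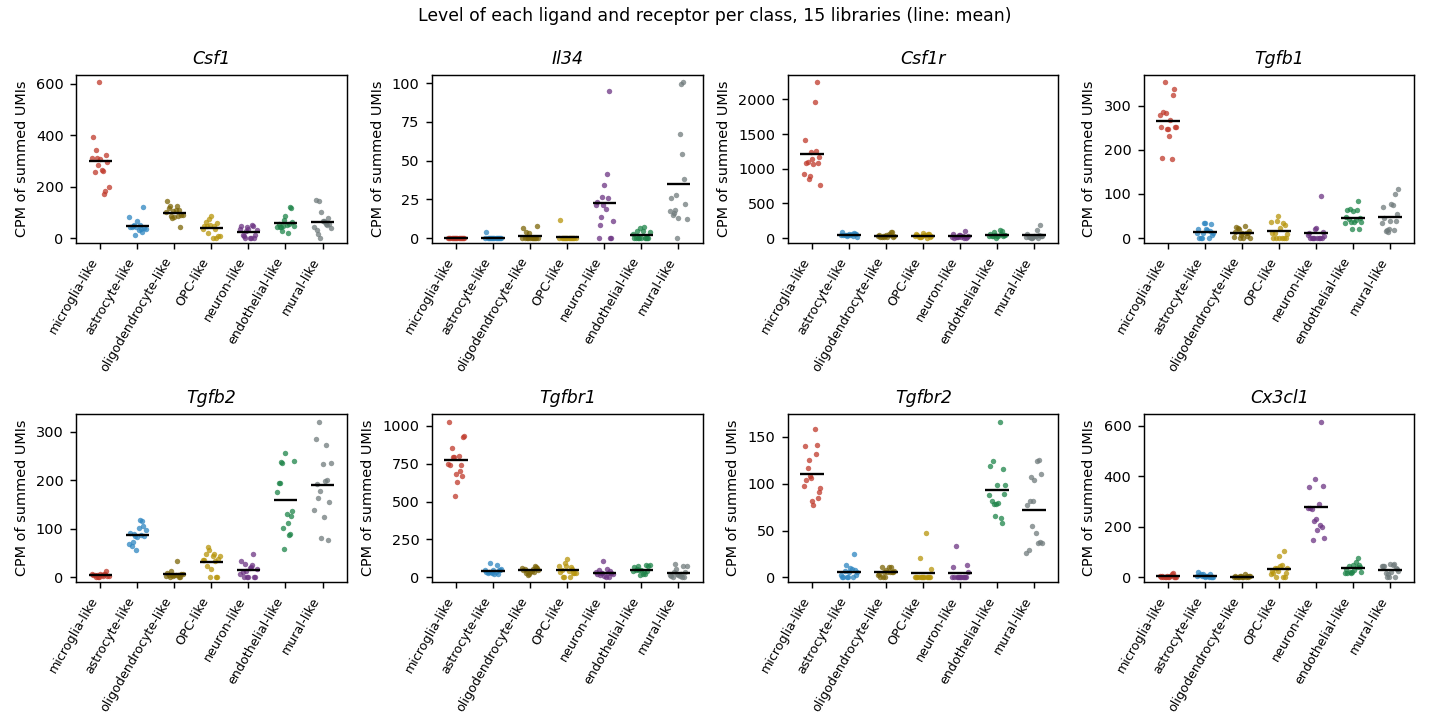
Level of each of the 8 genes (vertical axis, CPM of summed UMIs) in 7 cell classes (horizontal axis). Each point is 1 of 15 libraries and each line the mean over libraries. Csf1, Csf1r, Tgfb1 and Tgfbr1 stand highest in microglia-like cells and Cx3cl1 in neuron-like cells, each with no overlap with the other 6 classes, whereas Tgfb2 is spread over mural-like, endothelial-like and astrocyte-like cells.

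Of the 3 secreted ligands with the most UMIs, Csf1 and Tgfb1 were found mostly in the microglia-like cells themselves, and Tgfb2 mostly in vessel and astrocyte classes. The 250 bases upstream of the annotated start of these ligands are shown so that the first pair, highest in the same class, can be set beside Tgfb2. They are read from RefSeq on GRCm38.p6, 5′ to 3′ on the strand of the gene, in lower case with 4 short motifs in capitals on either strand. The GC box was searched as GGGCGG and the TATA box as TATAAA. A SMAD-type element was searched as CAGACA and, as the core bound by ETS factors such as the myeloid factor Spi1, GAGGAA was used.
Csf1 (chr3:107760470-107760719, minus strand): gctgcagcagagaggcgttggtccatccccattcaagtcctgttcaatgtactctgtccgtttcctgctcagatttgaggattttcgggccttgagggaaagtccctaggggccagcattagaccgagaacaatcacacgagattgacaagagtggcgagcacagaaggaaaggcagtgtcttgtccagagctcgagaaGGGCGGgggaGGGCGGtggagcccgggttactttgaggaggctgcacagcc
Tgfb1 (chr7:25686752-25687001, plus strand): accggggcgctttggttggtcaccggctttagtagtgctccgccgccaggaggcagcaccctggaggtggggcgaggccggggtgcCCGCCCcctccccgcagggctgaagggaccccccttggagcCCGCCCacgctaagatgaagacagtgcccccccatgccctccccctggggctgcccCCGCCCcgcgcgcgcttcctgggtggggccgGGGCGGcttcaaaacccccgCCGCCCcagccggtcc
Tgfb2 (chr1:186705990-186706239, minus strand): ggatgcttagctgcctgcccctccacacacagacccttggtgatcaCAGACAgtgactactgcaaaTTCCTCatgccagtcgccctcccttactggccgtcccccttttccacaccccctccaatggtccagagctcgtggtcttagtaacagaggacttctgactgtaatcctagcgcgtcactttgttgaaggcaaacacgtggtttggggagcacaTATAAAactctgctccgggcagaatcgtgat
The Tgfb1 stretch was 75.2% G or C and held 5 GC boxes and none of the other 3 motifs. The Tgfb2 stretch was 53.6% G or C, held no GC box, and held 1 TATA box, 1 CAGACA and 1 GAGGAA. The Csf1 stretch was 56.4% G or C and held 2 GC boxes. Among 32851 RefSeq promoters of the same length, 32.7% held GGGCGG, 12.4% TATAAA, 17.1% CAGACA and 23.3% GAGGAA, so a match is a description of these letters and not a binding site.

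Csf1 (ENSMUSG00000014599, chromosome 3, 107741048 to 107760469, GRCm38) was highest in microglia-like cells, which held 58.3% of its 2365 UMIs. Its level there ranged over 15 libraries from 173 to 606 CPM with a median of 296, and averaged 300.5 ± 104 CPM (SD, n = 15). Among the classes drawn, oligodendrocyte-like cells came next, at 98.9 ± 24.8 CPM (41.3 to 144). Every microglia-like value lay above every value of that class. Mural-like (63.1 ± 41.1), endothelial-like (59.3 ± 29.1), astrocyte-like (48.5 ± 26.0), OPC-like (38.8 ± 26.6) and neuron-like cells (23.3 ± 19.5) followed, and the ranges of neighbours in this order overlapped. Macrophage-like cells, which are not among the classes drawn, averaged 211 CPM on 83 UMIs, of which 19 came from 1 cell. They ranged from 0 to 968 CPM and overlapped with microglia-like cells. The UMIs of Csf1 in microglia-like cells came from 796 cells, with at most 9 in a cell.

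Il34 (ENSMUSG00000031750, chromosome 8, 110741829 to 110805924, GRCm38), the other ligand of Csf1r, was at the limit of detection with 77 UMIs in 15 libraries. Of these, 37 (48.1%) were in mural-like cells, at 35.1 ± 31.3 CPM, and 24 (31.2%) in neuron-like cells, at 22.7 ± 23.5 CPM. Mural-like cells held at least 1 Il34 UMI in all but 1 library and neuron-like cells in all but 3. No Il34 UMI was found among 4563081 UMIs of microglia-like cells, which allows a level of up to 0.808 CPM (upper limit of the exact 95% Poisson interval, counting error only). With cells of at least 500 detected genes the order of the leading pair turned, and neuron-like cells were first. In the class where Csf1 was highest, Il34 was thus not detected.

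Csf1r, the receptor of Csf1 and Il34, was the member of the 8 with the largest share of its UMIs in 1 class, 87.6% of 6238 in microglia-like cells. It ranged there from 761 to 2248 CPM with a median of 1093, and averaged 1213 ± 403 CPM (n = 15). The macrophage-like class, named for the other cell type known to depend on this receptor but possibly mixed, stood at 403 ± 213 CPM (146 to 761). No microglia-like library overlapped with any library of the astrocyte-like class (48.8 ± 17.4) or of the 5 classes below it, whose means ran down to 25.2 CPM in neuron-like cells. Those low levels are close to what carried-over RNA would give, as shown further on.

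Tgfb1 (ENSMUSG00000002603, chromosome 7, 25687002 to 25705077, GRCm38) followed Csf1 in being highest in the cells it acts on. Microglia-like cells held 75.4% of its 1595 UMIs and ranged from 180.0 to 353 CPM with a median of 251, an average of 265 ± 49.2 CPM (n = 15). Among the 7 classes drawn, mural-like (48.6 ± 31.5) and endothelial-like cells (46.4 ± 17.7) came next, at levels that overlapped with each other and not with microglia-like cells. Macrophage-like cells, which are not among the 7, ranged from 0 to 335 CPM on few UMIs per library and overlapped with microglia-like cells. OPC-like, astrocyte-like, neuron-like and oligodendrocyte-like cells averaged 16.1, 14.5, 11.8 and 11.5 CPM.

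Tgfb2 (ENSMUSG00000039239, chromosome 1, 186622792 to 186705989, GRCm38), which signals through the same receptor pair, showed nearly the reverse. It was highest in mural-like cells at 190.3 ± 71.1 CPM (76.3 to 321) and endothelial-like cells at 159 ± 65.0 CPM (58.6 to 257), whose ranges overlapped and whose order turned when classes were set by markers alone. Astrocyte-like cells stood at 88.1 ± 17.9 CPM (56.0 to 118) and were above OPC-like cells (32.5 ± 20.3) in 15 of 15 libraries. Microglia-like cells held 20 of its 1150 UMIs, at 4.54 ± 3.55 CPM. Endothelial-like cells, being more numerous, held 42.3% of the UMIs, astrocyte-like cells 26.4% and mural-like cells 18.4%. Among mural-like cells, those with smooth muscle genes read 233 CPM (95% Poisson interval 191 to 282) and those with pericyte genes 163 CPM (129 to 203), counting error only. Tgfb1 read 30.8 CPM (16.8 to 51.7) with smooth muscle genes and 71.4 CPM (49.7 to 99.2) with pericyte genes. The microglial gene Cx3cr1 moved with it, from 96.8 to 228 CPM, and Tgfb1 in mural-like cells as a whole was 1.34 times the level that carried-over RNA would give and above it in 8 of 15 libraries. This split was chosen after the values were seen and was given no test.

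The type I receptor Tgfbr1 (ENSMUSG00000007613, chromosome 4, 47353222 to 47414931, GRCm38) was again a gene of microglia-like cells, with 83.1% of 4323 UMIs. It ranged there from 539 to 1028 CPM with a median of 751, an average of 773 ± 127 CPM. The next class among the 7, endothelial-like cells, averaged 50.3 ± 22.1 CPM and overlapped with every class below it. Macrophage-like cells read 164 ± 126 CPM.

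The type II receptor Tgfbr2 (ENSMUSG00000032440, chromosome 9, 116084293 to 116175360, GRCm38), which binds the ligand first, was shared between microglia and vessels. Microglia-like cells averaged 111 ± 24.3 CPM (77.8 to 158) and held 50.6% of 974 UMIs, endothelial-like cells 93.5 ± 28.4 CPM (57.6 to 166) with 28.0%, and mural-like cells 72.0 ± 35.7 CPM (25.9 to 126). Microglia-like cells were above endothelial-like cells in 9 of 15 libraries, so the order of these classes was not settled. Every mural-like value lay above every astrocyte-like value (5.91 ± 6.81 CPM), and oligodendrocyte-like, OPC-like and neuron-like cells were at or under 5.49 CPM. Endothelial-like cells were therefore near microglia-like cells in Tgfbr2 and far below them in Tgfbr1.

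Cx3cl1 (ENSMUSG00000031778, chromosome 8, 94772009 to 94782427, GRCm38) was highest in neuron-like cells, which held 60.7% of its 580 UMIs although they were 1466 of the 28530 cells. Its level there ranged from 149 to 616 CPM with a median of 269, an average of 279 ± 119 CPM. Endothelial-like cells (mean 35.7, 17.0 to 76.8 CPM), OPC-like cells (32.4 ± 30.1) and mural-like cells (28.8 ± 19.6) were all below the lowest neuron-like value. Neuron-like cells with and without UMIs of the GABA-synthesis genes Gad1 or Gad2 read 224 CPM (165 to 297) and 267 CPM (238 to 299), with overlapping Poisson intervals. Its receptor Cx3cr1 had 87.8% of its UMIs in microglia-like cells, at a mean of 5647 CPM. The ADAM proteases that shed Cx3cl1 were found in many classes: Adam10 averaged 183 CPM in endothelial-like, 152 in microglia-like and 43.7 in neuron-like cells, and Adam17 was highest in microglia-like cells at 74.0 CPM.

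In droplet libraries free RNA gives every cell some UMIs of other cells' genes. For each class the summed level of the markers of every other class gave a carry-over rate, and the rates gave the level that each of the 8 genes would have if none of its UMIs were made in that class. The scale was checked on Cx3cr1, whose measured level was between 0.795 and 1.07 times the expected level in 5 of the 6 classes other than microglia-like cells and 0.474 times in mural-like cells. For Csf1r the same ratio was between 0.481 and 1.02 in these 6 classes, so its UMIs there were about what carry-over gives or fewer. Macrophage-like cells were not among these classes. Tgfbr1 was between 1.33 and 1.52 times the expected level in 5 of them and 0.459 times in mural-like cells.

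**Figure D2:**
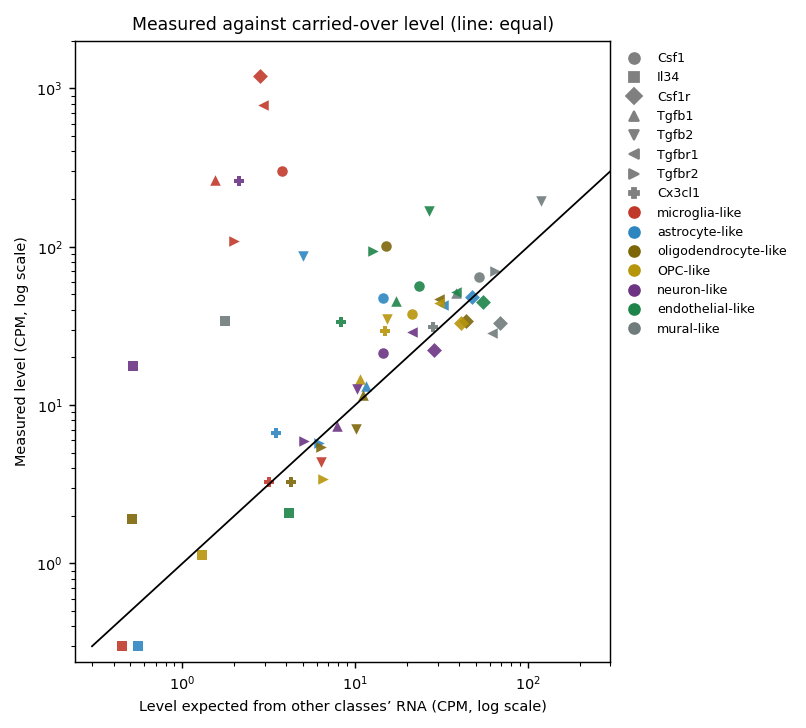
Measured level (vertical axis, CPM, log scale) against the level expected from the RNA of all other classes (horizontal axis, CPM, log scale), with 1 point per gene (shape) and class (colour) pooled over 15 libraries and a line where both are equal. Values under 0.3 CPM are drawn at 0.3. Csf1r in the 6 classes drawn other than microglia-like cells lies on or below the line, and Csf1 in oligodendrocyte-like and Tgfb2 in astrocyte-like and endothelial-like cells lie well above it.

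The other ligands gave more than carry-over in several classes. Csf1 in oligodendrocyte-like cells was measured at 101 CPM and expected at 15.0, a ratio of 6.74, and was above the expected level in 15 of 15 libraries. Astrocyte-like cells gave a ratio of 3.27 for Csf1 (15 of 15) and endothelial-like cells 2.41 (13 of 15), whereas mural-like cells gave 1.23 (6 of 15). For Tgfb2 the ratio was 17.6 in astrocyte-like and 6.32 in endothelial-like cells (15 of 15 in each), 2.30 in OPC-like cells (12 of 15) and 0.689 in microglia-like cells (4 of 15). The mural-like ratio for Tgfb2 was 1.63 (14 of 15), on a high expected level because endothelial markers stood in that class at 64.1% of their endothelial level. Endothelial-like cells were above carry-over for Tgfbr2 (ratio 7.42, 15 of 15), Cx3cl1 (4.04, 15 of 15) and Tgfb1 (2.61, 14 of 15). Tgfbr2 in astrocyte-like, oligodendrocyte-like and OPC-like cells was at 0.935, 0.851 and 0.521 times the expected level. Il34 was at 34.5 times the expected level in neuron-like cells (12 of 15) and 19.1 times in mural-like cells (14 of 15), on 24 and 37 UMIs.

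For each gene the 3 genes with the most similar profile over the 10 named classes were taken, by Pearson's r of mean log2(CPM + 10), among 7586 genes at or over 50 CPM in at least 1 class. Over 10 classes of shared libraries these correlations are descriptions. Csf1r was most like Cd180, Itgam and Tagap (r between 0.995 and 0.996), Tgfbr1 most like Rhoh, A630001G21Rik and P2ry13 (0.984 to 0.992), and Tgfb1 most like Gpsm3, Cyba and Prcp (0.972 to 0.984). Csf1 was most like Ctsa, Tyrobp and Syngr2 (0.946 to 0.954), and Tgfbr2 most like Bag1, Msn and Txnip (0.933 to 0.953). Tgfb2 was most like Crip2, Hey1 and Rgs12 (0.939 to 0.962), Cx3cl1 most like Syt7, Rasgrf2 and Cabp1 (0.954 to 0.978), and Il34 most like Rgs4, Gucy1b3 and Dlgap2 (0.905 to 0.961).

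The proteins that hold and release latent TGF-beta were themselves divided over classes. Nrros, which tethers latent Tgfb1 on the microglial surface, averaged 64.5 ± 25.7 CPM in microglia-like cells and 8.72 CPM in endothelial-like cells, the next of the 7 classes. Lrrc32, its relative, was in mural-like (42.0 CPM) and endothelial-like cells (20.2 CPM). Itgb8, the integrin chain that releases Tgfb1 held in this way, was highest in OPC-like cells at 307 ± 123 CPM and astrocyte-like cells at 156 ± 44.0 CPM and stood at 3.47 CPM in microglia-like cells. The extracellular binding protein Ltbp4 was in endothelial-like (194 ± 72.0) and mural-like cells (175 ± 63.1), and Ltbp1 in OPC-like (44.8), mural-like (24.4) and astrocyte-like cells (23.3). The endothelial receptor genes of the family, Eng and Acvrl1, averaged 241 and 191 CPM in endothelial-like cells. Genes that TGF-beta signalling induces as feedback were high in microglia-like cells, with means of 562 CPM for Skil and 491 CPM for Pmepa1, and Smad7, another of them, was at 187 CPM in endothelial-like cells. Tgfb3, the third ligand, was under 10 CPM in all 7 classes.

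Microglia-like cells fell into 2 clusters that differed widely in Csf1. Cluster 0 held 6125 cells in the 15 libraries and its leading genes included Ccl4, Plek, Cd83, Nfkbiz, Ccl3, Casp4 and Il1a, among them genes that microglia raise when stimulated. Cluster 5 held 1329 cells and its leading genes included Maf, P2ry12, Fcrls, Gpr34 and Cx3cr1, genes of resting microglia. Csf1 averaged 348 CPM in cluster 0 and 55.8 CPM in cluster 5, and was higher in cluster 0 in 15 of 15 libraries. Tgfb1 averaged 279 and 192 CPM and was higher in cluster 0 in 13 of 15 libraries.

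The receptors lay the other way. Tgfbr1 averaged 726 CPM in cluster 0 and 1022 CPM in cluster 5 and was higher in cluster 0 in 3 of 15 libraries. Csf1r averaged 1176 and 1382 CPM (higher in cluster 0 in 4 of 15), Tgfbr2 106 and 128 CPM (5 of 15), and Cx3cr1 5414 and 6832 CPM (0 of 15). The clusters were formed from the genes of the same cells, though not from these 8, so the values are descriptions with no test. Tgfbr1, like Cx3cr1, was also among the leading genes by which cluster 5 is described, so the levels of these genes there are not separate support. The median UMI count per cell was 516 in cluster 0 and 481 in cluster 5. The genes that led cluster 0 include ones that dissociation of fresh tissue is known to raise, and how far the cluster was present in the tissue was not tested.

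**Figure D3:**
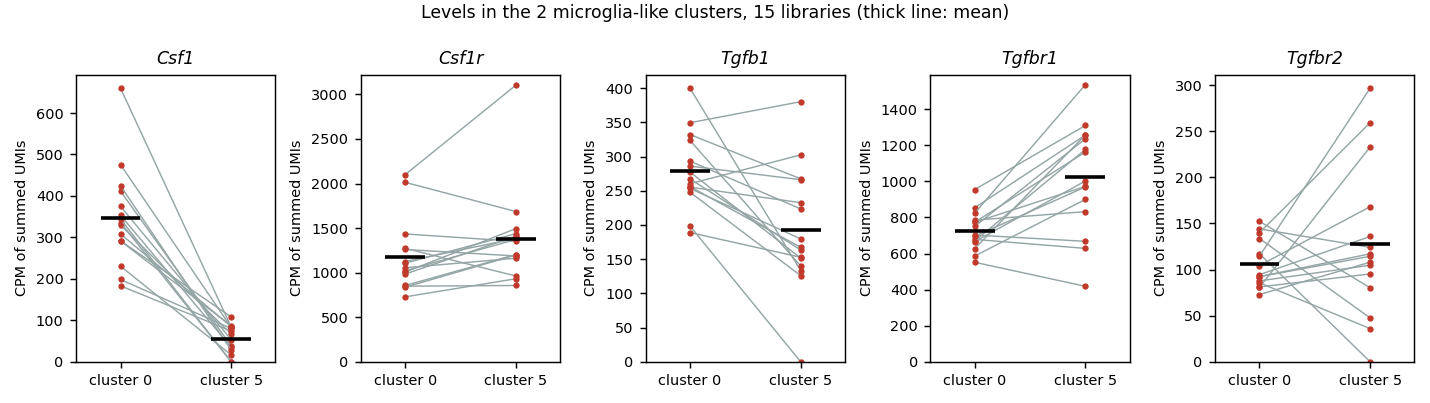
Level of 5 genes (vertical axis, CPM of summed UMIs) in the 2 microglia-like clusters (horizontal axis), with 1 pair of joined points per library for 15 libraries and thick lines at the means. Csf1 is lower in cluster 5 than in cluster 0 in every library, and Tgfbr1 is higher in cluster 5 in all but 3.

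Genotypes were compared by edgeR's quasi-likelihood test on UMIs summed per library and class, in males, in females, as the mean of both sexes, and as male minus female. A call needed an adjusted p under 0.05 (Benjamini-Hochberg over all genes tested) and a log2 fold change of 0.5 or more in size. The 8 genes gave 27 pairs of gene and level with enough UMIs, hence 108 tests, and 0 were called. Few genes of any kind were called: of the 5097 genes tested in microglia-like cells, males gave 0.334%, females 0%, the mean of both 0.0589% and male minus female 0%. In oligodendrocyte-like cells the shares were 0.0681%, 0.0227%, 0% and 0.182%, in OPC-like cells 0.0794%, 0%, 0.0794% and 0%, and they were 0% throughout in all cells summed and in the astrocyte-like, neuron-like, endothelial-like and mural-like classes. Il34 had too few UMIs for a test at any level. In the paragraphs that follow, values after ± are standard errors for log2 fold changes and SDs for CPM.

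Csf1 in microglia-like cells gave the lowest p of the 108 tests. The WT females read 173, 181 and 197 CPM and the THY-Tau22 females 394, 283, 266, 324 and 296 CPM. The highest WT female was below the lowest THY-Tau22 female, and Csf1 was the 1 gene of the 5 testable here whose female groups did not overlap with THY-Tau22 higher, as did 1.22% of all genes (0.628% did not overlap with THY-Tau22 lower, and none of the 5). The group means were 184 ± 12.0 (n = 3) and 313 ± 50.4 CPM (n = 5), a log2 fold change of 0.76 ± 0.26 with an unadjusted p of 0.00745 by edgeR, beside 2.84% of genes under an unadjusted p of 0.05, and an adjusted p of 1. The log2 fold change was 0.93 without the MB22 libraries (edgeR, unadjusted p = 0.00691) and 0.54 with cells of at least 500 detected genes (unadjusted p = 0.170). Without both libraries of the repeated animal code it was 0.64 (edgeR, unadjusted p = 0.0308).

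In males Csf1 in microglia-like cells did not separate the genotypes. The WT males read 309, 258 and 311 CPM and the THY-Tau22 males 606, 307 and 260.2 CPM. The THY-Tau22 values reach both above and near the lowest of the WT values, and replicate 1 is the highest of all 14 libraries. The log2 fold change was 0.33 ± 0.27 (edgeR, adjusted p = 0.559) and became -0.171 without that replicate. Over both sexes it was 0.54 ± 0.19 (edgeR, unadjusted p = 0.00763, adjusted p = 0.608, beside 6.98% of genes under an unadjusted p of 0.05) and became 0.294 without THY-Tau22 male replicate 1 (unadjusted p = 0.110). The male minus female difference was -0.43 ± 0.38 (adjusted p = 0.637), so a sex difference in the effect of genotype was not shown. WT males (293 ± 30.3) lay above WT females in every pair of libraries, a contrast that was not among those tested. No share of all genes was set beside it, so no sex difference is read from it.

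Inside cluster 0 Csf1 read 183, 198 and 231 CPM in WT females and 476, 330.1, 292, 412 and 353 CPM in THY-Tau22 females. That cluster held 1337 of the 1379 Csf1 UMIs of microglia-like cells, so these are largely the same counts and not separate support. The share of microglia-like cells in cluster 0 was 85.2% ± 5.21 in WT females and 80.0% ± 3.34 in THY-Tau22 females. Summed Ccl3, Ccl4 and Il1a, which lead the cluster, read 3482, 4334 and 1180 CPM in the WT females and 3668, 2795, 2892, 2476 and 2139 CPM in the THY-Tau22 females. In females these values overlapped between the genotypes. In males they did not, at 2199, 2219 and 1401 CPM in WT and 4747, 3754 and 5971 CPM in THY-Tau22. Among single genes in microglia-like cells, 15.9% separated in this way in males with THY-Tau22 higher and 8.81% with THY-Tau22 lower. The part of these genes in the male levels of Csf1 and Csf1r was not tested. In all cells summed Csf1 gave log2 fold changes of 0.55 ± 0.24 in females (edgeR, unadjusted p = 0.0330, adjusted p = 1.00, beside 1.74% of genes under an unadjusted p of 0.05) and 0.42 ± 0.18 over both sexes (unadjusted p = 0.0270, adjusted p = 0.946, beside 4.22% of genes). In summed cells, fewer cells of a class and less RNA per cell cannot be told apart.

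**Figure D4:**
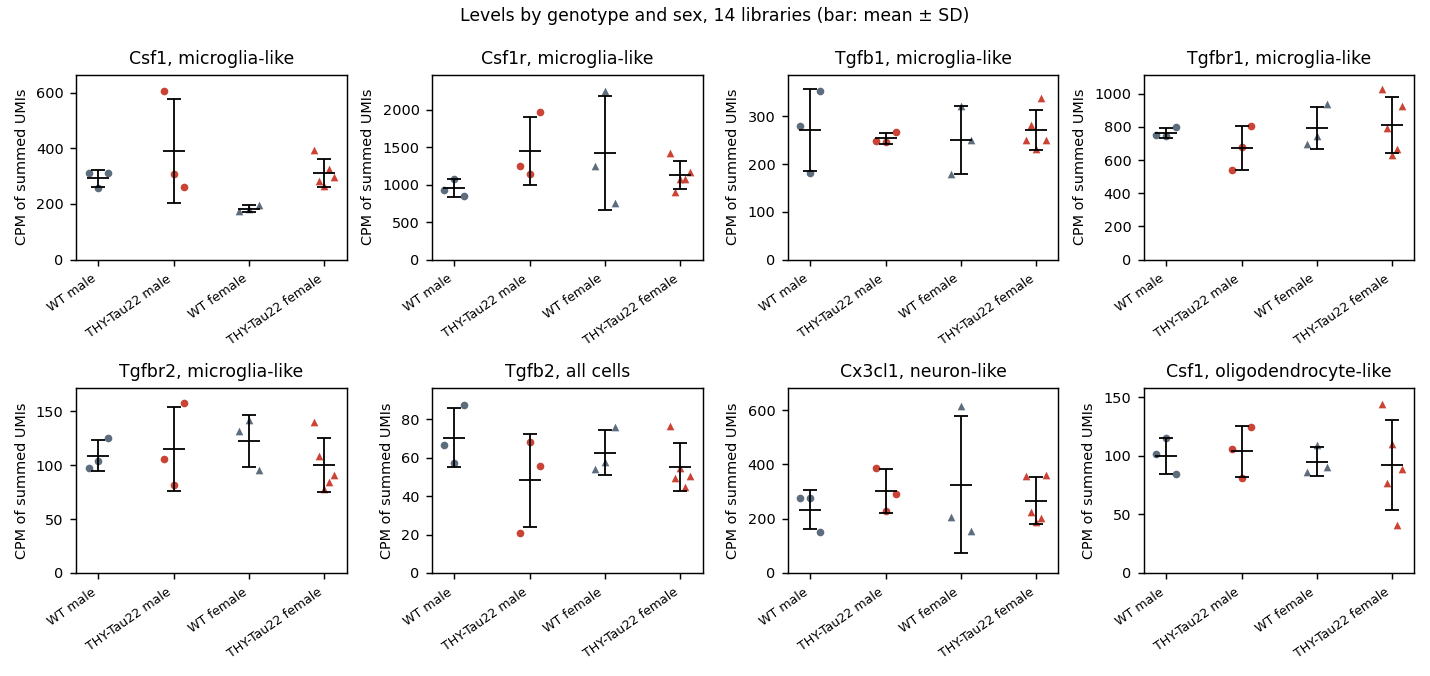
CPM of summed UMIs (vertical axis) in the 4 groups (horizontal axis) for 8 pairs of gene and level. Each point is 1 of 14 libraries, circles for males and triangles for females, with the mean and SD of each group. Csf1 in microglia-like cells is lowest in the 3 WT females (173 to 197 CPM), below all 5 THY-Tau22 females (266 to 394 CPM), and in the other panels the groups of females overlap.

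Csf1r in microglia-like cells moved with single libraries. The WT males read 926, 1081 and 849 CPM and the THY-Tau22 males 1243, 1136 and 1963 CPM, so the male groups did not overlap, as for 15.9% of all genes with THY-Tau22 higher (8.81% with THY-Tau22 lower, and none of the 5 testable genes). The WT females read 1253, 2248 and 761 CPM and the THY-Tau22 females 1417, 902, 1074, 1080.0 and 1172 CPM, and these overlapped. The highest values, WT female replicate 2 and THY-Tau22 male replicate 3, were from the 2 libraries with the most genes per cell (medians of 445 and 434). The log2 fold change was 0.51 ± 0.28 in males (edgeR, adjusted p = 0.350, with 17.1% of genes under an unadjusted p of 0.05; 0.243 without THY-Tau22 male replicate 3) and -0.29 ± 0.25 in females (adjusted p = 1). The male minus female difference was 0.80 ± 0.37 (edgeR, unadjusted p = 0.0406, adjusted p = 0.327, beside 14.4% of genes).

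The receptor level of Csf1r in all cells summed and that of Csf1 were also higher in each of the 3 THY-Tau22 males than in each of the 3 WT males, as for 22.4% of all genes, and the count of 2 of the 7 testable genes is near that share. None of the 7 was lower in this way in males (6.68% of genes), and in females none was higher (0.679%) or lower (0.507%). The log2 fold changes in males were 0.29 ± 0.26 for Csf1 and 0.48 ± 0.31 for Csf1r, with adjusted p = 0.602 and 0.451 in edgeR.

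The TGF-beta genes of microglia-like cells gave small differences. Tgfb1 read 279, 181 and 353 CPM in WT males, 248, 247 and 267 in THY-Tau22 males, 180.0, 323 and 251 in WT females and 251, 283, 231, 338 and 251 in THY-Tau22 females, with overlap in both sexes. Its log2 fold change over both sexes was -0.05 ± 0.17 (edgeR, adjusted p = 0.962). Tgfbr1 read 751, 742 and 798 CPM in WT males, 539, 682 and 804 in THY-Tau22 males, 699, 744 and 937 in WT females and 630.05 to 1028 in THY-Tau22 females, a log2 fold change of -0.12 ± 0.17 (adjusted p = 0.894). Tgfbr2 stood at 109 ± 14.6, 115 ± 39.2, 123 ± 24.1 and 100.2 ± 24.9 CPM in the same order of groups, a log2 fold change of -0.13 ± 0.20 (adjusted p = 0.918).

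Tgfb2 in all cells summed also had unadjusted p-values under 0.05 and was not called. The WT males read 66.5, 57.4 and 87.7 CPM and the THY-Tau22 males 21.0, 68.0 and 55.5 CPM, with overlap, and the lowest value belonged to replicate 1. The log2 fold change was -0.72 ± 0.32 in males (edgeR, unadjusted p = 0.0358, adjusted p = 0.298, beside 15.4% of genes) and -0.45 ± 0.21 over both sexes (unadjusted p = 0.0456, adjusted p = 0.946). In males it was -0.393 without THY-Tau22 male replicate 1, and over both sexes it was -0.292 without that library and -0.30 without WT female replicate 3. Leaving out 1 library gave values from -1.06 to -0.393 in males and from -0.626 to -0.292 over both sexes. The male minus female difference was -0.53 ± 0.43 (adjusted p = 0.603, with 12.7% of genes under an unadjusted p of 0.05). Within classes it was -0.38 ± 0.29 in mural-like, -0.36 ± 0.28 in endothelial-like and -0.05 ± 0.23 in astrocyte-like cells over both sexes (edgeR, adjusted p = 0.885, 0.929 and 0.989). Endothelial-like cells, which hold the largest share of its UMIs, were 16.7%, 14.4% and 16.7% of cells in the WT males and 13.8%, 13.4% and 9.19% in the THY-Tau22 males. These shares are of all cells, unnamed ones included. A fraction of 0.681 of the larger unnamed cluster (577 cells) came from 1 library. The library at 9.19%, THY-Tau22 male replicate 3, held the most UMIs outside the named classes, which lowers its share of every named class. The part of the endothelial-like share in the summed level was not tested.

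Among the other pairs, Cx3cl1 in neuron-like cells read 276, 275 and 149 CPM in WT males, 388, 229 and 290 in THY-Tau22 males, 207, 616 and 154 in WT females and 186 to 360.4 in THY-Tau22 females. The groups overlapped in both sexes, and the log2 fold change was 0.10 ± 0.30 (edgeR, adjusted p = 0.989). Csf1 in oligodendrocyte-like cells, which held the largest share of its UMIs after microglia-like cells, changed by -0.06 ± 0.23 over both sexes (adjusted p = 0.984). The lowest unadjusted p outside microglia-like cells and the sum of all cells was 0.0991, for Tgfbr1 in astrocyte-like cells over both sexes (-0.58 ± 0.34 by edgeR, adjusted p = 0.914). In that class Tgfbr1 was at 1.33 times its carried-over level and above it in 12 of 15 libraries.

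Genes around the 8 were read from 5 lists: 13 of the Csf1r axis, 16 that handle latent TGF-beta, 20 receptors, SMADs and feedback genes, 12 microglia genes that depend on TGF-beta, and 3 of the Cx3cl1 axis. Of these 11, 4, 13, 12 and 3 were tested in microglia-like cells and 0 were called in any contrast. The lowest p-values were of Klf10, a TGF-beta early-response gene, at 0.93 ± 0.28 over both sexes (edgeR, unadjusted p = 0.00236, adjusted p = 0.463), Pmepa1, a feedback inhibitor, at -0.93 ± 0.29 in males (adjusted p = 0.110), and Tyrobp, the adaptor that carries signals of Trem2 and Csf1r, at 1.04 ± 0.33 in males (adjusted p = 0.116). In the list of TGF-beta-dependent microglia genes 1 of 12, Olfml3, had an unadjusted p under 0.05 in males (0.70 ± 0.27, edgeR, adjusted p = 0.189) and none did in females, beside 17.1% and 2.84% of all genes. The median log2 fold change of this list was 0.11 in males and -0.12 in females, beside 0.01 and 0.00 over all genes. Cx3cr1 changed by -0.58 ± 0.27 in males (edgeR, adjusted p = 0.260) and 0.10 ± 0.24 in females (adjusted p = 1).

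Microglia that surround damage raise Clec7a, Cst7 and Itgax. In 11 of the 14 libraries at least 10 microglia-like cells held a UMI of these genes, in all 247 cells against 5077 without, or 2.54% to 11.1% per library. Only microglia-like cells entered, so any cells with these UMIs that were placed in other classes were left out. Tgfbr2 averaged 83.9 ± 58.7 CPM in cells with such UMIs and 112 ± 27.2 CPM in cells without, and was higher with them in 3 of 11 libraries. The mean difference on the log2(CPM + 10) scale was -0.81 (SD 1.31, exact two-sided sign-flip permutation test, p = 0.0410, 0.205 adjusted over the 5 genes tested). It rests on 18 Tgfbr2 UMIs in the cells with damage-related UMIs, and in 2 of the 11 libraries those cells held none, so that the pseudocount sets the difference there. With a pseudocount of 50 CPM the mean difference was -0.41 and with 1 CPM it was -1.41 (exact permutation p = 0.0469 and 0.0391, adjusted 0.234 and 0.195).

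Csf1 averaged 540 ± 548 CPM with and 292 ± 98.1 CPM without these UMIs. In the single libraries it ran from 0 to 1749 CPM with them and from 173 to 524 CPM without, and was higher with them in 7 of 11, a mean log2 difference of 0.02 (SD 2.04, exact permutation p = 0.977). The spread between libraries was thus far larger than the mean difference. Csf1r (-0.18), Tgfb1 (-0.40) and Tgfbr1 (-0.31) also gave no call, with exact permutation p-values of 0.183, 0.494 and 0.138. The smallest p that 11 libraries allow is 0.000977.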

How the data were processed

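In Drop-seq a cell and a bead share a droplet, and the bead's primers mark every captured transcript with the barcode of its cell and with a unique molecular identifier (UMI). The authors, per the labels and the methods of the study, made 3′ libraries, ran the standard Drop-seq pipeline (version not given in the sources used here) on mm10, and deposited UMI counts per gene and barcode, 3000 barcodes per table, with no normalization. Per the study's methods each table is 1 mouse.

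From these counts, barcodes with 200 to 7000 detected genes were clustered in scanpy 1.11.5 (2500 variable genes without the 8 genes and the pathway lists other than markers, 19 principal components, 20 neighbours, leidenalg 0.10.2 at resolution 0.5). Class names are rebuilt, which by itself can make values differ from the study's. Scrublet marked 1603 of 28530 cells (5.62%) as doublets; they were kept, and left out in an alternative. UMIs were summed per library and class and tested over all genes in edgeR 4.0.16 (quasi-likelihood, TMM, 1 mean per group) in R 4.3.3, where all 14 libraries held at least 10 cells of the class, with DESeq2 1.42.0 as an alternative. The fit was tested on simulated data. The cells with Clec7a, Cst7 or Itgax UMIs were compared within libraries by an exact sign-flip permutation test. Intervals are exact 95% Poisson and cover counting error only. How UMIs of near-identical genes were divided depends on an aligner setting not given in the sources used here. P-values measure the spread between mice.

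Gene coordinates are from GENCODE M21 and promoters from RefSeq, both on GRCm38. The members and lists were chosen with earlier results of these data known. Named genes were the 8 members, Cx3cr1, up to 5 genes per pathway list with the lowest p in microglia-like cells, the 3 most similar genes per member, and pathway genes for their levels. Settings varied were the test, scaling, low-count filter, cell filter, doublets, class definition, the shared library, the MB22 libraries and each library in turn.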

Additional observations from a re-analysis of the deposited data

Results flagged for a closer look

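In 27 groups of 5 libraries (the THY-Tau22 females, for each gene and level tested), the highest or lowest library was set against the others by Dixon's test, which flags about 1 in 20 groups by chance, and 3 were flagged. Csf1 in THY-Tau22 female replicate 4 stood at 121 CPM in astrocyte-like cells, with the others between 12.2 and 41.2 CPM, and at 116 CPM in endothelial-like cells, with the others between 46.6 and 60.5 CPM. That library had the fewest UMIs of the 16 tables (1041675) and the lowest median per cell (429). Tgfbr2 in all cells of THY-Tau22 female replicate 1 stood at 64.0 CPM, with the others between 38.1 and 45.0 CPM.

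The 18527 barcodes with fewer than 200 detected genes, which no comparison used, held 4003869 UMIs in 15 libraries and all 8 genes. Their levels were 101 CPM for Csf1, 4.25 for Il34, 253 for Csf1r, 70.4 for Tgfb1, 53.2 for Tgfb2, 196 for Tgfbr1, 41.2 for Tgfbr2 and 27.7 for Cx3cl1. In the kept cells pooled over classes the levels were 123, 4.01, 325, 83.1, 59.9, 225, 50.7 and 30.2 CPM in the same order.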

How the results depend on the processing

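No call was made for the 8 genes in males, females or both sexes under any of the alternatives run. For the male minus female difference, leaving out 1 library gave 0 to 1 calls, the 1 being Csf1r (log2 1.04, microglia-like cells), which appeared when WT female replicate 3 was left out, beside 8.34% of all genes tested in that class. For the pathway lists, calls in males were 1 with DESeq2, 3 with no low-count filter, 3 without the MB22 libraries and 0 to 3 leaving out 1 library. Calls for the difference between sexes were 1 with no low-count filter, 9 without the MB22 libraries and 0 to 13 leaving out 1 library, both upper values without WT female replicate 3. These counts came with more calls over all genes: for the difference between sexes, 6.6% of tested list genes and 8.44% of all genes were called without WT female replicate 3, 4.76% and 5.63% without the MB22 libraries, and 0.204% and 0.216% with no low-count filter. In males the pairs were 1.52% and 1.5%, 1.59% and 1.35%, and 0.613% and 0.317% in the same order, and 0.541% and 0.451% with DESeq2. All but the DESeq2, cell-filter, marker-class, 16-library and leave-one-out settings of the lists were chosen after seeing the data, as was leaving out both libraries of the repeated animal code. The test of microglia-like cells with Clec7a, Cst7 or Itgax UMIs gave 0 to 1 calls, the 1 being Tgfbr2 without THY-Tau22 female replicate 2 (-0.953, adjusted exact permutation p = 0.0488).

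None of the values that changed sign was called. Without the MB22 libraries Csf1r in microglia-like cells over both sexes was -0.0337, Tgfb2 was 0.0755 in endothelial-like and 0.028 in astrocyte-like cells, and Cx3cl1 in neuron-like cells was -0.202. With 500 to 7000 genes Csf1 in microglia-like cells was 0.116 for male minus female, Tgfb1 0.0375 and Cx3cl1 -0.101 over both sexes. In the damage-gene comparison Csf1 was -0.274 with a pseudocount of 1 CPM, and Tgfb1 0.153 and Tgfbr1 0.422 with at least 2 UMIs. Leaving out 1 library moved Csf1 in microglia-like cells between -0.171 and 0.552 in males and between 0.653 and 0.91 in females, Csf1r between -0.537 and 0.163 in females (reversed without WT female replicate 2) and between -0.0165 and 0.326 over both sexes, Tgfb1 between -0.165 and 0.0557, Tgfb2 between -0.751 and 0.0805 in endothelial-like and between -0.195 and 0.0573 in astrocyte-like cells, Cx3cl1 between -0.0965 and 0.354, Csf1 in oligodendrocyte-like cells between -0.178 and 0.0283, and Csf1 in the damage-gene comparison between -0.248 and 0.517. The causes were not tested.

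The class with the highest level was the same under the alternatives for all genes but Il34 (500 to 7000 genes) and Tgfb2 (classes from markers alone). Without mitochondrial genes and Malat1 in the total, Tgfb1, Tgfbr1 and Tgfbr2 in microglia-like cells were 325, 955 and 135 CPM. No paired analysis of the genotypes was possible because the labels give no replicate numbers and those used here pair no mice. Depth limited Il34, with 77 UMIs, and every gene in the OPC-like class, where none of the 8 could be tested.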
